A study of Mus musculus with 4 samples.

Results

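A set of 10 genes of the brain matrix was followed in single-nucleus RNA sequencing of the mouse forebrain after a stroke: the lecticans Vcan, Ncan, Bcan and Acan, the link protein gene Hapln1, the tenascins Tnr and Tnc, the membrane-anchored proteoglycans Cspg4 and Cspg5, and the receptor phosphatase Ptprz1. The genes were taken by symbol from the deposited gene lists, and all 10 of 10 were found among 46983 genes. The series holds 4 libraries, 1 for each of sham control and days 1, 3 and 7 after permanent middle cerebral artery occlusion (MCAO), a stroke model in which the artery stays blocked. All animals were male C57Black/6 mice of 3 months without a stated transgene, and each library was made from 3 pooled forebrain hemispheres, so no group has a replicate and no value below has a replicate check. On the control tissue the labels disagree: the protocol of the surgery speaks of cortex that was not injured, and the design text of forebrain hemispheres for every group. The study describes its control as without injury and refers to an earlier study for the effect of sham surgery. Whether the animals labelled sham control were operated is therefore not settled here. The study also gives numbers of nuclei per time point, which match the deposited libraries only with the labels of the later time points exchanged. The deposited labels were kept, and each of these libraries was compared with the sham control on its own, as the library labelled day 3 or labelled day 7.

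Lecticans are chondroitin sulfate proteoglycans that bind hyaluronan through one end of the core protein and tenascins through the other, and link proteins such as that of Hapln1 hold the lectican on the hyaluronan chain. Together these molecules form the loose matrix of the brain and the denser perineuronal nets around some neurons, and astrocytes, neurons and oligodendrocyte precursor cells (OPCs) all make parts of it. After injury the matrix around a lesion is known to change, and its chondroitin sulfate chains are known to restrain axon growth and precursor maturation.

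UMIs (unique molecular identifiers) count RNA molecules, and levels are given as counts-per-million (CPM), the UMIs of the gene over all UMIs of a nucleus class. Intervals are exact 95% intervals, and they cover counting error only. The libraries held between 23285489 and 42963698 UMIs, and 7772 nuclei were kept, between 1017 (day 1) and 3071 (labelled day 3). The median was 11052 UMIs per nucleus in the day 1 library and between 5472.5 and 7047 in the other libraries, and from 0 to 3 nucleus barcodes were shared by any pair of libraries. Classes were named from marker genes that include no member, and the members were left out of the genes used for clustering. The 238 OPC-like nuclei numbered 56, 35, 98 and 49 in the sham, day 1, labelled day 3 and labelled day 7 libraries, and values below keep that order. All 12 OPC markers were detected in them in each library, and Pdgfra, the receptor that defines OPCs, stood at 960, 738, 576 and 754 CPM. The other main classes were 487 astrocyte-like, 1163 oligodendrocyte-like, 426 microglia-like and 4983 neuronal nuclei.

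Of the members, 6 of 10 had the highest pooled level in OPC-like nuclei, namely Vcan, Acan, Tnr, Tnc, Cspg5 and Ptprz1. Ncan and Bcan were highest in astrocyte-like nuclei, Cspg4 in mural-like nuclei of the vessel wall, and Hapln1 in Adarb2 interneuron-like nuclei. For Vcan, Tnr and Ptprz1 the OPC-like level lay above that of the next class in 4 of 4 libraries without overlap of the intervals. For the other 7 members the first and second class were less clearly apart.

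**Figure D1:**
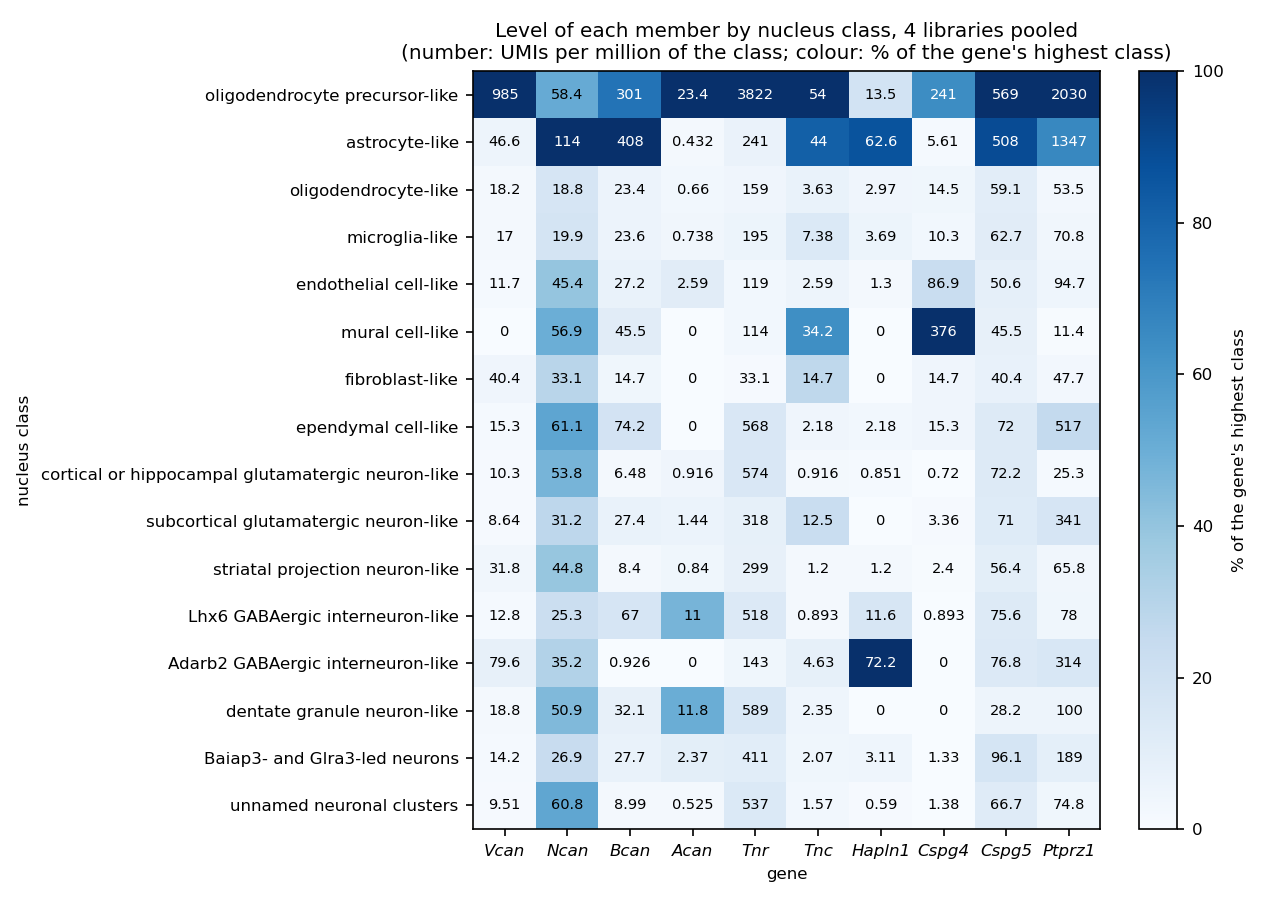
Pooled level of each gene (columns) in each nucleus class (rows) over the 4 libraries, printed as CPM and coloured as a percentage of the highest class of that gene. Vcan, Tnr and Ptprz1 peak in the OPC-like row at 985, 3822 and 2030 CPM, whereas Ncan and Bcan peak in the astrocyte-like row at 114 and 408 CPM.

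Vcan encodes versican, a large lectican of loose matrix (chromosome 13, bases 89655312 to 89742509, minus strand, GRCm38). Its OPC-like level was 1079 CPM in sham control, 953 on day 1, 866 in the library labelled day 3 and 1161 in the library labelled day 7. The 4 values lay within a narrow band, and the lowest and highest intervals, 781 to 958 and 1023 to 1313, did not overlap. The next class, Adarb2 interneuron-like nuclei, had 79.6 CPM over the pooled libraries, a ratio of 12.4 (9.92 to 15.6). OPC-like nuclei were 3.06% of all nuclei kept and held 49.0% of the Vcan UMIs. With every nucleus thinned to 1000 UMIs, Vcan was seen in 60.7%, 57.1%, 65.3% and 71.4% of OPC-like nuclei (91.1%, 100%, 83.7% and 89.8% unthinned). Microglia-like nuclei, which should lack it, gave 0%, 0%, 2.1% and 1.0% after thinning. The median unthinned depths were 3576.5, 5471, 2745.5 and 3681 UMIs in OPC-like and 1827, 4073, 1746 and 2049.5 UMIs in microglia-like nuclei.

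Tnr encodes tenascin-R, which crosslinks lecticans in nets and around myelinated axons (chromosome 1, bases 159523769 to 159931729, plus strand). OPC-like nuclei had 4156, 3218, 3471 and 4855 CPM, from 901, 780, 1507 and 1062 UMIs. Every OPC-like nucleus carried the RNA in 3 libraries and 97 of 98 did in the library labelled day 3, and the next class, dentate granule neuron-like nuclei, had 589 CPM (ratio 6.49, 6.01 to 7.03). Still, OPC-like nuclei held only 13.4% of all Tnr UMIs, because the many neuronal nuclei, at 418, 444, 497 and 558 CPM, held 80.6%. In cortical or hippocampal glutamatergic neuron-like nuclei Tnr stood at 492, 549, 619 and 620 CPM, and in striatal projection neuron-like nuclei at 293, 258, 299 and 351 CPM.

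Ptprz1 encodes a receptor-type phosphatase whose secreted form, phosphacan, is itself a chondroitin sulfate proteoglycan (chromosome 6, bases 22875502 to 23052916, plus strand). It stood at 2223, 2013, 1898 and 2121 CPM in OPC-like and at 1189, 1171, 1486 and 1484 CPM in astrocyte-like nuclei. The pooled ratio of these classes was 1.51 (1.43 to 1.59), and the OPC-like value was higher in each library. Thinned to 1000 UMIs, 83.9%, 82.9%, 83.7% and 79.6% of OPC-like nuclei had a Ptprz1 UMI, against 70.1%, 55.6%, 76.0% and 78.3% of astrocyte-like and 6.5%, 4.3%, 8.9% and 4.2% of microglia-like nuclei. Ependymal-like nuclei came next, with 533, 643, 361 and 535 CPM.

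The promoters of these 3 genes are shown because their RNA marked the same class in every library. That of Tnc is added because it had the largest ratio to sham control in OPC-like nuclei. This ratio rested on 1 UMI in sham control, and its call was not kept after thinning. Each run is the 250 bases before the RefSeq start on GRCm38.p6, 5′ to 3′ on the strand of the gene. They lie at chr13:89742513-89742762 (minus), chr1:159523519-159523768 (plus), chr6:22875252-22875501 (plus) and chr4:64047016-64047265 (minus). Capitals mark a match to the SOX core ACAAAG, the E-box CAGCTG or the AP-1 motif TGANTCA, each searched on both strands.
Vcan: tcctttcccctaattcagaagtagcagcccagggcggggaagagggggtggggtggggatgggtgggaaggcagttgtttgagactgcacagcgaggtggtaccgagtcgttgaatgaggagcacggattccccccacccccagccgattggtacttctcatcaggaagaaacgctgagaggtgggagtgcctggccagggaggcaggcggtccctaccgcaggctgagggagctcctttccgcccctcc
Tnr: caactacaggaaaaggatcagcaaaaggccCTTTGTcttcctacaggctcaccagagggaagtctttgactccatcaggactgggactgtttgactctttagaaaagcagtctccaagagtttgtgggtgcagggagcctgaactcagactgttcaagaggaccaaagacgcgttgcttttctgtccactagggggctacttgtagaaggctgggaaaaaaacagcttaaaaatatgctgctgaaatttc
Ptprz1: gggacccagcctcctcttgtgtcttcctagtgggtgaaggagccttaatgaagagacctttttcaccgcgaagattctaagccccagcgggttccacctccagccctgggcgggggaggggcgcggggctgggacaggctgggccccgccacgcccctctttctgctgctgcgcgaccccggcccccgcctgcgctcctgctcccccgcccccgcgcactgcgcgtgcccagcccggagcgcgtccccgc
Tnc: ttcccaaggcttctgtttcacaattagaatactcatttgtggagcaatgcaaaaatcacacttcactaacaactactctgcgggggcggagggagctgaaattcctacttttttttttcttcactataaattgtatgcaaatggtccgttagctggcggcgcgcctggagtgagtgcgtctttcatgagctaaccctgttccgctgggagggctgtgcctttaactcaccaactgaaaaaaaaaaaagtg
The 4 windows differed in base composition, with 62.4%, 46.8%, 71.6% and 44.8% G or C. The only match was in Tnr, a SOX core on the opposite strand from 220 to 215 bases before the start. Of 32851 RefSeq windows of this length, 16.5% held the SOX core, 13% the E-box and 6.75% the AP-1 motif, so a match of this kind is common. Among the 9 members with an entry, the Ncan and Acan windows each held 1 E-box, at 58 to 53 and 179 to 174 bases before the start. The windows of Bcan, Hapln1 and Cspg4 held none of these letters.

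Bcan encodes brevican, the shorter lectican of synapses and nodes (chromosome 3, bases 87987531 to 88000230, minus strand). Astrocyte-like nuclei had 492, 319, 395 and 379 CPM and OPC-like nuclei 392, 297, 226 and 366 CPM. The astrocyte-like value was the higher in 4 of 4 libraries, but the intervals were apart in only 1 of them, the library labelled day 3. Ncan, the gene of neurocan, another astrocyte and neuron lectican (chromosome 8, bases 70093085 to 70120873, minus strand), stood at 150, 98.2, 102 and 94.1 CPM in astrocyte-like nuclei. The next class was ependymal-like nuclei with 61.1 CPM pooled (ratio 1.86, 1.26 to 2.86), and the intervals overlapped in every library. Neuronal nuclei, at 49.6, 44.5, 47.7 and 49.2 CPM, held 81.3% of Ncan UMIs and 34.7% of Bcan UMIs.

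Acan encodes aggrecan, the lectican that defines perineuronal nets (chromosome 7, bases 79053483 to 79115099, plus strand). It was sparse everywhere, and its OPC-like lead rested on 4, 10, 6 and 6 UMIs, or 18.5, 41.3, 13.8 and 27.4 CPM. Over the second class, dentate granule neuron-like nuclei at 11.8 CPM, the pooled ratio was 1.99 (1.01 to 4.04). Of all Acan UMIs, 75.2% lay in neuronal nuclei. Among the 3 clusters of Lhx6 interneuron-like nuclei, the one led by Kcnmb2, Eya4 and Btbd11 had 18.8 CPM of Acan and 607 CPM of Tnr, the one led by Kcnmb2, Fign and Pvalb had 2.0 and 317 CPM, and the one led by Sst and Npy had 0 and 446 CPM. Bcan followed another order there, with 84.4, 87.2 and 20.3 CPM. Pvalb itself, the marker of net-bearing interneurons, was 61.0 CPM in the first of these clusters and 149 CPM in the second. In astrocyte-like nuclei Acan was seen as 1 UMI over the 4 libraries, in the library labelled day 3. The sham control value there was 0, which allows up to 4.41 CPM by a limit of 3 UMIs.

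Hapln1 (chromosome 13, bases 89539796 to 89611652, plus strand) lies near Vcan on the chromosome but had another pattern. Adarb2 interneuron-like nuclei had 64.0, 43.3, 96.6 and 102 CPM and astrocyte-like nuclei 64.7, 58.4, 77.9 and 32.9 CPM, and the pooled ratio of 1.15 (0.865 to 1.53) did not separate them. OPC-like nuclei had 36.9, 12.4, 6.91 and 4.57 CPM of Hapln1, from only 8, 3, 3 and 1 UMIs.

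Cspg4 encodes NG2, the proteoglycan used to identify OPCs and pericytes (chromosome 9, bases 56865033 to 56899870, plus strand). OPC-like nuclei had 351, 276, 173 and 229 CPM and held 50.9% of its UMIs. Mural-like nuclei had 519, 78.1, 394 and 0 CPM, from 13, 8, 20 and 2 nuclei with 15, 1, 17 and 0 UMIs, so the pooled lead of that class (376 over 241 CPM, ratio 1.56, 1.05 to 2.24) came from the sham library and the library labelled day 3. Thinned to 1000 UMIs, Cspg4 was seen in 30.4%, 31.4%, 24.5% and 22.4% of OPC-like and in 0%, 2.1%, 2.1% and 0% of microglia-like nuclei (39 of 56, 27 of 35, 49 of 98 and 25 of 49 OPC-like nuclei unthinned).

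Cspg5, the gene of neuroglycan C, a membrane proteoglycan of neurons and glia (chromosome 9, bases 110243783 to 110262576, plus strand), was high in both glial classes. It stood at 757, 553, 481 and 576 CPM in OPC-like and at 592, 398, 541 and 407 CPM in astrocyte-like nuclei (pooled ratio 1.12, 1.02 to 1.23), and the OPC-like value was the lower in the library labelled day 3. Neuronal nuclei held 61.5% of the Cspg5 UMIs.

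Tnc encodes tenascin-C, a tenascin of development and injury (chromosome 4, bases 63959785 to 64047015, minus strand). In sham control it was a gene of astrocyte-like nuclei, with 27 UMIs in 15 of 147 nuclei (39.7 CPM), while OPC-like nuclei held 1 UMI (4.61 CPM). Its pooled OPC-like lead, 54.0 over 44.0 CPM (ratio 1.23, 0.875 to 1.70), was not apart from 1, and the OPC-like value was the higher on day 1 only.

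**Figure D2:**
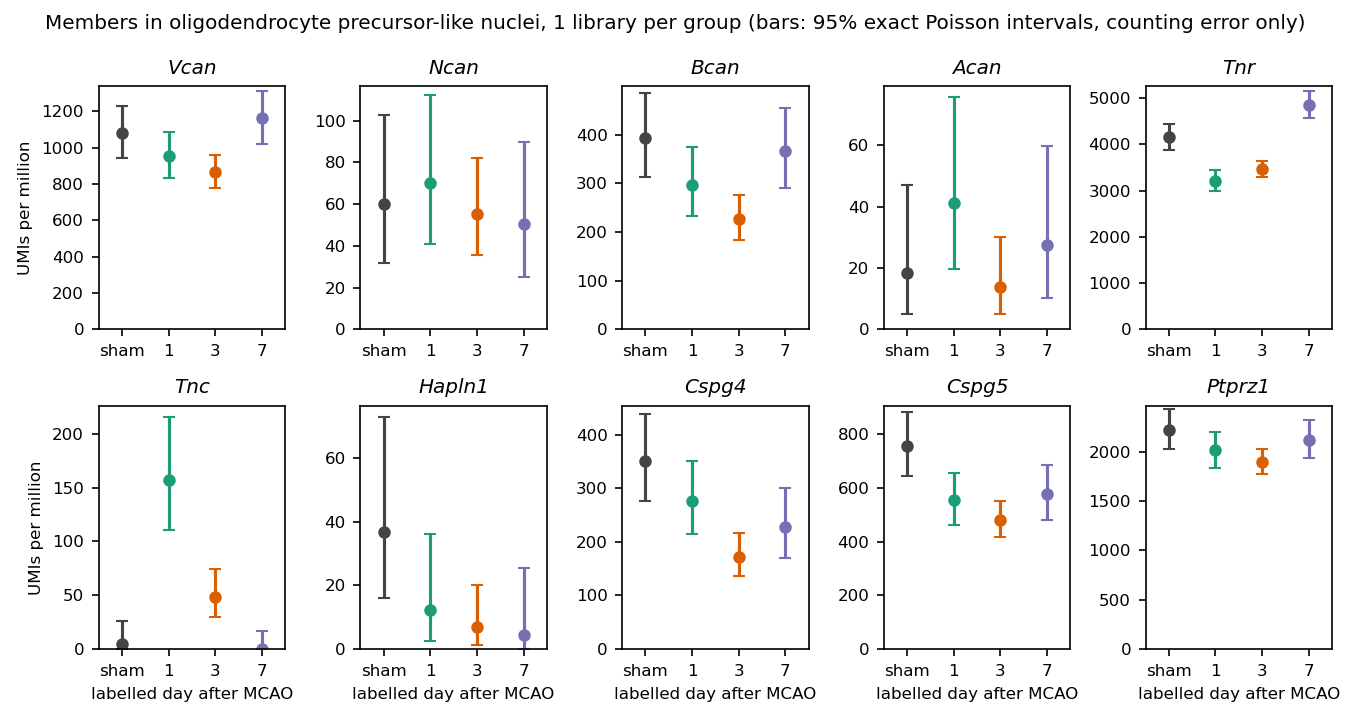
Level of each gene in OPC-like nuclei of the sham control library and the libraries labelled days 1, 3 and 7, in CPM, 1 library per group, with exact Poisson intervals for counting error as bars. Cspg4 runs from 351 CPM in sham to 173 CPM in the library labelled day 3, whereas Tnc is near 0 in sham and labelled day 7 and at 157 CPM on day 1.

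To see which members moved after occlusion within OPC-like nuclei, each library was set against sham control. A gene counted as higher or lower when the CPM ratio was at least 1.5 in that direction, its interval excluded 1 and the libraries together held at least 20 UMIs. On day 1, 1 of 8 members with enough UMIs passed this rule, against 10.2% of all 4519 genes. Labelled day 3, 4 of 8 passed, against 11%, with 1 higher and 3 lower, and labelled day 7, 1 of 7 passed, against 9.02%. The day 1 and labelled day 7 shares were close to the background, and the labelled day 3 share was above it. The 4 calls labelled day 3 became 0 after thinning to 1000 UMIs, 1 with merged libraries or with the mean of per-nucleus CPM, and 2 with a doublet share of double size, with a ratio of at least 2 or without the richest nucleus of each gene. The median log2 ratio of the members was -0.26, -0.29 and -0.10, beside 0.03, 0.05 and -0.01 over all genes tested, with 6 of 8, 7 of 8 and 5 of 7 ratios under 1. Within a class sum, fewer nuclei that carry a gene and less of its RNA per nucleus cannot be told apart.

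Tnc rose in OPC-like nuclei on day 1 and in the library labelled day 3. The UMIs were 1, 38, 21 and 0, or 4.61, 157, 48.4 and 0 CPM, and the 0 of the library labelled day 7 allows up to 13.7 CPM, taking 3 UMIs as the limit of a count of 0. The interval for day 1 ran from 111 to 215 CPM, above those of the other 3 libraries, and that for the library labelled day 3 from 29.9 to 73.9 CPM. The ratios to sham control were 34.0 (5.74 to 1377) and 10.5 (1.69 to 434), with wide intervals because sham held 1 UMI. The RNA lay in few nuclei: 6 of 35 on day 1 and 8 of 98 in the library labelled day 3 had a Tnc UMI, and 1 nucleus held 52.6% and 33.3% of the UMIs. Thinned to 1000 UMIs, 8.6% and 2.0% of these nuclei had a Tnc UMI, and microglia-like nuclei had none in any library. Unthinned, microglia-like nuclei held 1, 1, 0 and 8 Tnc UMIs (3.22, 3.50, 0 and 25.3 CPM), the 8 of them in 1 nucleus. With 4 and 2 thinned UMIs against 0 in sham control, neither OPC-like call of Tnc was kept after thinning. With the nucleus richest in Tnc left out of each library, 18 and 14 UMIs remained against 0 in sham control, under the minimum of 20 that the rule sets.

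Cspg4 fell in OPC-like nuclei of the libraries labelled day 3 and day 7, with ratios to sham of 0.493 (0.353 to 0.687) and 0.652 (0.447 to 0.944). The day 1 ratio of 0.788 did not pass. Cspg5 (0.636, 0.516 to 0.785) and Bcan (0.576, 0.426 to 0.779) fell in the library labelled day 3 as well, while their ratios on day 1, 0.731 and 0.757, and in the library labelled day 7, 0.761 and 0.933, did not pass. None of these falls passed when nuclei were thinned to 1000 UMIs. In the library labelled day 3 the thinned ratios were 0.64 for Bcan (0.360 to 1.14), 0.725 for Cspg5 (0.497 to 1.06) and 0.771 for Cspg4 (0.417 to 1.45), and labelled day 7 that of Cspg4 was 0.743 (0.340 to 1.57). Thinning also brought Cspg5 past the rule on day 1 (0.369, 0.179 to 0.701), with 12 against 52 UMIs. The sum of the 12 OPC markers moved alongside, at 16533, 13415, 12543 and 13162 CPM, and that of 8 pan-neuronal markers was 3506, 6077, 5475 and 4796 CPM. Oligodendrocyte markers summed to 1555, 957, 2533 and 2304 CPM in the same nuclei (14, 13, 14 and 14 of 14 detected), committed precursor markers to 2117, 1510, 1628 and 2999 CPM, neuroblast markers to 134, 132, 472 and 91.4 CPM and microglia markers to 180, 408, 364 and 352 CPM. The part of these markers in the falls was not tested. Vcan (0.883, 0.802 and 1.08), Tnr (0.774, 0.835 and 1.17) and Ptprz1 (0.905, 0.854 and 0.954), the members whose levels set the class apart in 4 of 4 libraries, stayed within 1.5-fold of sham control in every library.

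**Figure D3:**
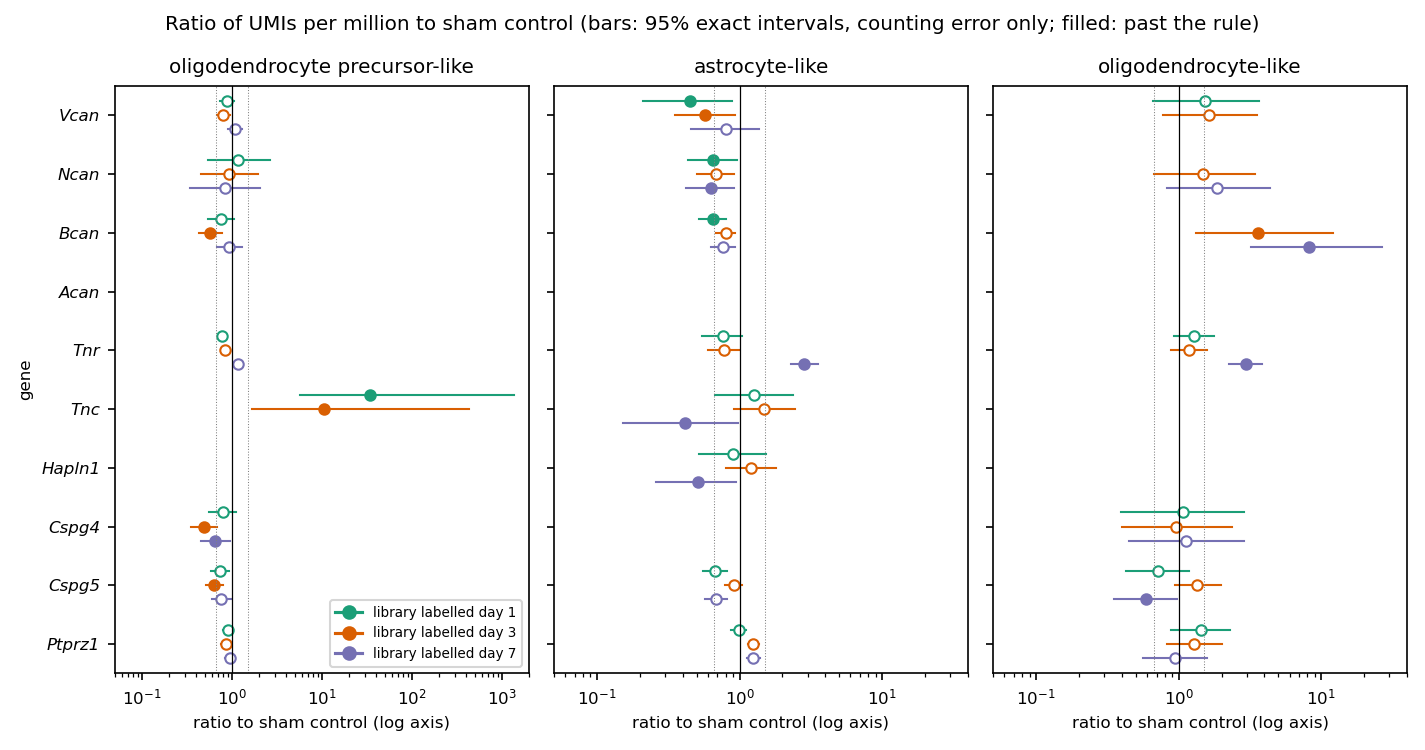
Ratio of CPM to sham control on a log axis for each gene in 3 nucleus classes, coloured by library, with exact intervals for counting error as bars and filled points for ratios past the rule. In OPC-like nuclei Tnc lies far to the right on day 1 and labelled day 3 and Cspg4 to the left. Most astrocyte-like points lie left of 1, and Tnr in the library labelled day 7 is the only filled point to the right.

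Astrocyte-like nuclei numbered 147, 54, 217 and 69. On day 1, 3 of 8 members fell, against 10.1% of all genes past the rule in either direction. These were Vcan (0.452, 0.210 to 0.889), Ncan (0.655, 0.437 to 0.963) and Bcan (0.647, 0.521 to 0.80), all of them lecticans. Of these calls 1, that of Bcan, passed with merged libraries, and 1, that of Vcan, with size factors. In the same nuclei 8 pan-neuronal markers summed to 5584, 7556, 3763 and 3656 CPM and 12 astrocyte markers to 12056, 10854, 15089 and 14283 CPM. Oligodendrocyte markers summed to 1221, 454, 1381 and 1731 CPM, OPC markers to 1228, 956, 1277 and 1359 CPM, microglia markers to 143, 226, 363 and 515 CPM, and endothelial markers to 52.9, 31.9, 82.7 and 261 CPM with 11, 7, 10 and 10 of 12 detected. The part of these markers in the changes was not tested. Vcan fell in the library labelled day 3 (0.575, 0.351 to 0.931) as 1 of 8, near the background of 10.5%. Its level there, 37.2 CPM, was not above the 40.7 CPM of microglia-like nuclei, whose other Vcan levels were 3.22, 3.50 and 9.49 CPM, and after thinning 1.8% of astrocyte-like and 2.1% of microglia-like nuclei of that library had a Vcan UMI. Labelled day 7, 4 of 8 passed, against 11.2%. Ncan (0.628, 0.424 to 0.913), Hapln1 (0.509, 0.258 to 0.947) and Tnc (0.415, 0.153 to 0.977) fell, and Tnr rose (2.83, 2.28 to 3.53). The member median was -0.48, -0.23 and -0.46 on the log2 scale, beside -0.08, -0.03 and -0.08 over all genes tested.

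The astrocyte-like Vcan and Tnc values were small in number. Vcan held 44, 11, 31 and 22 UMIs (64.7, 29.2, 37.2 and 51.7 CPM), and the day 1 ratio became 1.02 (0.174 to 4.25) when nuclei were thinned to 1000 UMIs. Tnc held 27, 19, 49 and 7 UMIs in 15, 9, 22 and 5 nuclei, and only the last of these libraries was past the rule. Tnc therefore stood higher in OPC-like than in astrocyte-like nuclei on day 1 (157 against 50.4 CPM), and lower in the other libraries. Ptprz1 and Cspg5, the members with the most astrocyte-like UMIs, had ratios of 0.985, 1.25 and 1.25 and of 0.673, 0.913 and 0.687, none past the rule. Cspg5 was near it, however, and passed as lower after thinning to 1000 UMIs on day 1 (0.520, 0.309 to 0.834) and labelled day 7 (0.658, 0.434 to 0.975). With the mean of per-nucleus CPM (0.625 and 0.599) and without the richest nucleus (0.641 and 0.661) it also passed in both libraries.

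Tnr in astrocyte-like nuclei was 198, 151, 153 and 562 CPM, with 135, 57, 128 and 239 UMIs in 29, 15, 43 and 23 nuclei. The value of the library labelled day 7 stood well apart from the other 3, which were at or below the 200, 234, 172 and 187 CPM of microglia-like nuclei. Thinned to 1000 UMIs, 10.2%, 5.6%, 5.5% and 13% of astrocyte-like nuclei had a Tnr UMI, against 8.6%, 6.4%, 8.9% and 11.5% of microglia-like nuclei. The nucleus richest in Tnr held 36.0% of its UMIs, and the ratio was 2.71 (2.08 to 3.54) without the richest nucleus of each library. Thinned to 1000 UMIs it was 1.62 (0.792 to 3.26) and no longer passed. Markers of committed oligodendrocyte precursors, the stage between OPC and oligodendrocyte, summed to 705, 661, 700 and 1376 CPM in the same nuclei with 8, 7, 8 and 8 of 9 detected, and those of OPCs to 1228, 956, 1277 and 1359 CPM. Their part in the Tnr value was not tested.

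Oligodendrocyte-like nuclei (321, 161, 429 and 252) make little of most members. None of 5 members passed on day 1 (background 10.3%), 1 of 7 in the library labelled day 3 (7.03%) and 3 of 6 in the library labelled day 7 (8.75%). Bcan passed as higher in both of the later libraries (3.58, 1.32 to 12.1, and 8.17, 3.2 to 26.7), from 5 UMIs in sham to 22 and 36, or 6.38, 13.5, 22.9 and 52.2 CPM. Free RNA of the droplets alone would give about 11.3, 9.29, 12.6 and 12.5 CPM, so the values of the first 2 libraries lie at that level. The share of nuclei with a Bcan UMI, 1.2%, 2.5%, 4.2% and 7.9%, was at or below that in microglia-like nuclei (5.4%, 8.5%, 4.2% and 7.3%) in all but the library labelled day 7. The share in those 3 libraries, that labelled day 3 included, is therefore not read as expression, although the 22.9 CPM labelled day 3 (14.3 to 34.6) lay above the free RNA estimate. The median depth of oligodendrocyte-like nuclei was 2023, 3094, 1856 and 2347.5 UMIs, and after thinning to 1000 UMIs the shares were 0.3%, 0%, 1.4% and 4.0% against 1.1%, 0%, 1.6% and 3.1%. The Bcan level of microglia-like nuclei, 16.1, 17.5, 29.4 and 28.5 CPM, also exceeded the oligodendrocyte-like value in every library but that labelled day 7. Cspg5 passed as lower in the library labelled day 7 (0.591, 0.349 to 0.978), with 48 against 25 UMIs, but lost its call under 5 of 11 alternatives (0.235 to 0.713). Its levels, 61.3, 43.7, 83.1 and 36.2 CPM, were near those of microglia-like nuclei, 64.4, 69.9, 67.8 and 47.4 CPM. Nuclei with a Cspg5 UMI, 12.8% in sham and 9.1% labelled day 7, were also fewer than the 15.1% and 10.4% of microglia-like nuclei, and this share is not read as expression either.

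Tnr rose in oligodendrocyte-like nuclei of the library labelled day 7 (2.95, 2.27 to 3.87), from 102 CPM in sham to 301 CPM, with 131 and 121 CPM between. All but the labelled day 7 value were below the levels of microglia-like nuclei, and so was the share of nuclei with a Tnr UMI after thinning in every library (5.0%, 5.0%, 7.9% and 6.3%). This came from 1 cluster. The cluster of 65 nuclei led by Cnksr3 and Cldn14, closest after oligodendrocytes to committed precursors, had 170, 0, 336 and 1908 CPM of Tnr, from 13, 0, 47 and 159 UMIs in 16, 8, 27 and 14 nuclei. The main cluster, led by Prr5l and Aspa, had 107, 178, 94.2 and 92.8 CPM, and the cluster led by Anln 66.5, 0, 61.5 and 45.4 CPM. Without the cluster led by Cnksr3 and Cldn14 the labelled day 7 ratio of Tnr was 0.852 (0.577 to 1.25). Bcan differed, with 4.03, 16.0, 24.9 and 39.8 CPM in the main cluster and a ratio of 8.54 (2.57 to 44.6) without the small one. In the whole class committed precursor markers summed to 1209, 994, 1029 and 1736 CPM.

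**Figure D4:**
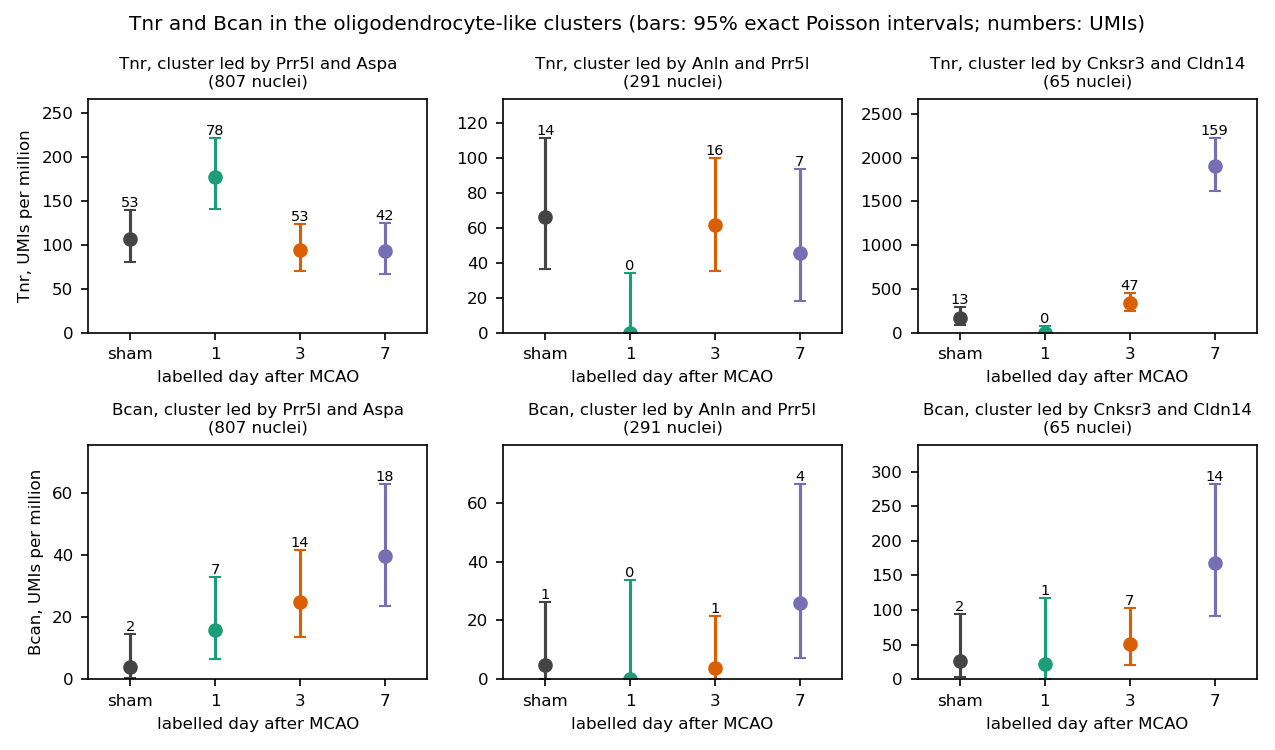
Tnr (upper row) and Bcan (lower row) in the 3 oligodendrocyte-like clusters, in CPM by library, with exact Poisson intervals as bars, UMIs printed above them and a separate vertical scale for each panel. Tnr reaches 1908 CPM only in the small cluster led by Cnksr3 and Cldn14 of the library labelled day 7, whereas Bcan is higher in that library in the main cluster too.

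Neuronal nuclei held most UMIs of Ncan, Tnr, Acan and Cspg5, but for each of them less than the 83.5% of all UMIs that these nuclei held, and few members passed the rule in them. All 10 members could be compared, and 1 passed on day 1 (background 7.42%), 0 in the library labelled day 3 (5.43%) and 2 in the library labelled day 7 (7.43%). Tnc rose on day 1 (2.26, 1.16 to 4.57) and in the library labelled day 7 (2.30, 1.19 to 4.63), at 1.08, 2.44, 1.68 and 2.49 CPM from 15, 27, 29 and 28 UMIs in 11, 9, 24 and 12 nuclei. Its pooled level of 1.85 CPM was below the 7.38 CPM of microglia-like nuclei (0 to 25.3 CPM over the libraries). In sham and in both libraries called higher, the neuronal level lay below the microglia-like level. The day 1 call of Tnc was lost after thinning to 1000 UMIs (1.04), at resolution 1.6 (1.62), without the richest nucleus of each library (1.88) and with a minimum of 50 UMIs, which left no call on day 1. Vcan fell in the library labelled day 7 (0.604, 0.482 to 0.753), at 17.8, 18.0, 15.5 and 10.8 CPM. By type, Vcan fell there in striatal projection neuron-like nuclei (0.617, 0.410 to 0.910), where 2 of 6 members passed against 6.87% of all genes (the other was Ptprz1, lower at 0.626), and in the neurons led by Baiap3 and Glra3 (0.432, 0.188 to 0.908), where 1 of 6 passed against 7.55%. On day 1 Vcan fell in the former (0.590, 0.388 to 0.877), as 1 of 6 against 7.57%. In the cortical or hippocampal class it was 9.92, 11.3, 10.0 and 10.2 CPM and passed in no library. Bcan fell in the neuronal nuclei of unnamed clusters labelled day 3 (0.620, 1 of 6 members against 5.24%) and day 7 (0.592, 1 of 6 against 9.0%). Its levels in them, 7.41 to 12.5 CPM over the libraries, were all below those of microglia-like nuclei, 16.1 to 29.4 CPM. In Lhx6 interneuron-like nuclei Ptprz1 rose in the library labelled day 3 (1.50, 1.02 to 2.23) and in that labelled day 7 (2.51, 1.76 to 3.64), at 50.4, 57.1, 75.6 and 127 CPM. The sham and labelled day 3 levels were below those of microglia-like nuclei, given in the next paragraph, and the other levels were above. Cspg5 fell in Lhx6 interneuron-like nuclei of the library labelled day 7 (0.616, 0.418 to 0.897). There 1 of 6 members passed against 6.69% in the library labelled day 3, and 1 higher and 1 lower of 8 against 8.15% in that labelled day 7. In Adarb2 interneuron-like nuclei Ptprz1 (0.643, 0.474 to 0.870) and Tnr (0.565, 0.345 to 0.915) fell in the library labelled day 3, where 2 of 6 passed against 5.93%.

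Some classes with few nuclei also held members past the rule. Ependymal-like nuclei, which line the ventricles, had Tnr at 334, 768, 537 and 796 CPM, with 52, 86, 61 and 61 UMIs. Its ratio passed in all 3 libraries (2.30, 1.61 and 2.38), as 1 of 4, 1 of 5 and 1 of 3 members higher, against 15.2%, 20.1% and 20.4% of all genes of the class. Bcan fell there in the library labelled day 3 (0.131), with 21 against 2 UMIs. Endothelial-like nuclei had Ptprz1 at 227, 30.7, 70.4 and 38.6 CPM, with 35, 1, 32 and 5 UMIs, and it fell in all 3 libraries (0.136, 0.311 and 0.170). The values after occlusion were below those of microglia-like nuclei, 70.8, 42, 94.9 and 63.2 CPM, and the sham value was above. There 1 of 1, 3 of 5 and 2 of 3 members passed, all lower, against 15.7%, 13.3% and 10.7% of all genes. The others were Cspg4 (0.447) and Ncan (0.413) labelled day 3 and Tnr (0.188) labelled day 7, whose sham value of 123 CPM was itself below the 200 CPM of microglia-like nuclei. A cluster of 177 nuclei led by Ttr, heat shock genes and mitochondrial transcripts was given no name. It had 4 of 6 members higher in the library labelled day 3, Ncan (2.47), Bcan (2.22), Cspg5 (2.52) and Ptprz1 (1.52), but 25.7% of all its genes passed there too. Ptprz1 fell in it on day 1 (0.369, background 31.5%), and labelled day 7 Vcan fell (0.263) and Ncan rose (2.90, background 27.6%).

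Tnc could also be read without clusters or nucleus calling. All barcodes include the called nuclei, among them the OPC-like nucleus richest in Tnc on day 1, so this is no separate sample. Over all barcodes its UMIs were 92, 121, 411 and 98, or 3.26, 5.20, 9.57 and 3.91 CPM, and it was past the rule on day 1 (1.59, 1.20 to 2.11) and in the library labelled day 3 (2.93, 2.33 to 3.72). These backgrounds were 10.2% and 9.03%. In free RNA, the barcodes with at most 1000 UMIs, the values were 4.10, 3.37, 13.6 and 4.10 CPM. The ratio was 0.823 (0.508 to 1.32) on day 1, not past the rule, and 3.31 (2.41 to 4.66) in the library labelled day 3 (background 9.2%). Most of the Tnc UMIs of that library, 263 of 411, were thus in such barcodes, whereas in called nuclei day 1 had the highest level (2.86, 6.77, 5.54 and 3.66 CPM). Tnr over all barcodes was 340, 341, 378 and 454 CPM and Vcan 31.2, 30.2, 36.4 and 30.8 CPM, neither past the rule. In the library labelled day 7 no member passed over all barcodes (background 8.44%) or in free RNA (8.74%). Cspg4 in free RNA fell on day 1 (0.615, 0.471 to 0.799, background 9.42%), and over all barcodes its ratio of 0.689 did not reach the fold of the rule.

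**Figure D5:**
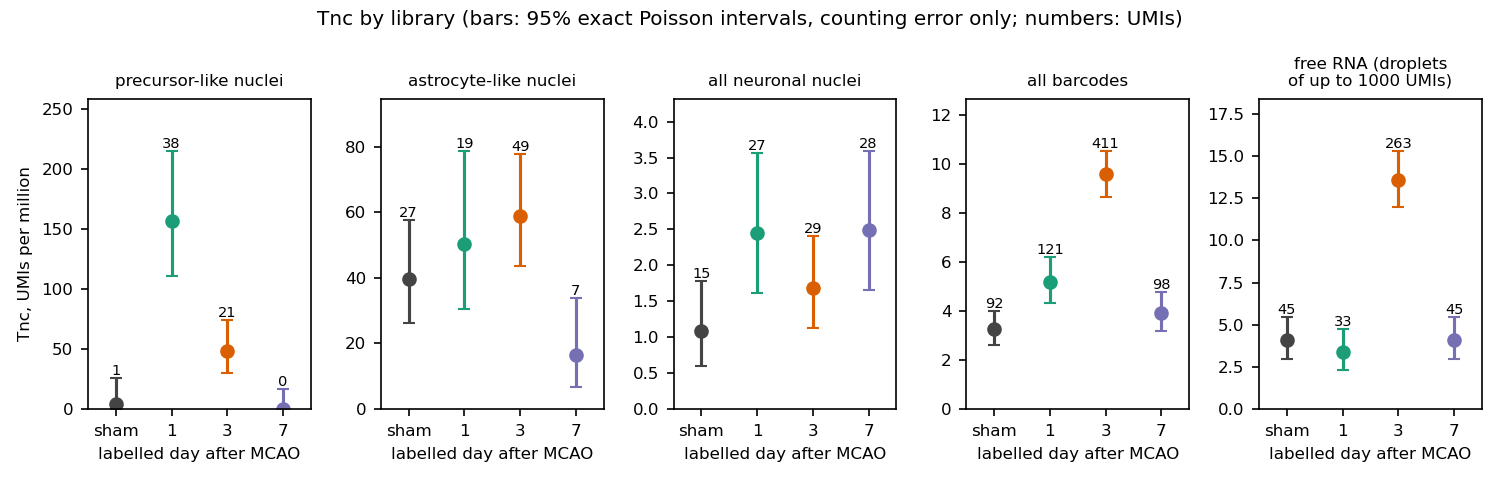
Tnc in OPC-like, astrocyte-like and neuronal nuclei, over all barcodes and in free RNA, in CPM by library, with exact Poisson intervals as bars, UMIs printed above them and a separate vertical scale for each panel. OPC-like nuclei peak at 157 CPM on day 1, and free RNA peaks at 13.6 CPM in the library labelled day 3.

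The enzymes, receptors and relatives around the members were read from 80 genes in 5 lists: link proteins and hyaluronan (11), chondroitin sulfate synthesis (21), matrix proteases and inhibitors (16), receptors and ligands (18), and other proteoglycans and tenascins (14). In OPC-like nuclei 1 was higher and 4 lower of 25 with enough UMIs on day 1, 4 and 5 of 31 in the library labelled day 3, and 3 and 2 of 22 in the library labelled day 7. In astrocyte-like nuclei the counts were 0 and 3 of 31, 4 and 4 of 38, and 4 and 3 of 32. In oligodendrocyte-like nuclei they were 3 and 2 of 33, 4 and 2 of 34, and 4 and 3 of 32, and in neuronal nuclei 5 and 4 of 63, 3 and 4 of 65, and 6 and 4 of 63. In OPC-like nuclei these were 20%, 29.0% and 22.7% of the genes compared, beside 10.2%, 11% and 9.02% of all genes, and in astrocyte-like nuclei 9.68%, 21.1% and 21.9%, beside 10.1%, 10.5% and 11.2%. In oligodendrocyte-like nuclei they were 15.2%, 17.6% and 21.9%, beside 10.3%, 7.03% and 8.75%, and in neuronal nuclei 14.3%, 10.8% and 15.9%, beside 7.42%, 5.43% and 7.43%. In OPC-like nuclei of the library labelled day 3, where the members stood above their background, receptors and ligands had 3 higher and 1 lower of 11, synthesis enzymes 1 and 2 of 8, proteases and inhibitors 0 and 2 of 6, and the other proteoglycans and tenascins 0 and 0 of 5.

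In OPC-like nuclei Dse, an epimerase that makes dermatan sulfate, rose in the library labelled day 3 (5.24, 1.28 to 46.1), from 2 to 21 UMIs. Adamts9, a lectican-cleaving protease, rose on day 1 (3.70, 1.59 to 10.0). Timp4, a metalloprotease inhibitor, fell on day 1 (0.429), labelled day 3 (0.379) and labelled day 7 (0.238), and Timp3, the inhibitor bound to matrix, fell on day 1 (0.490) and labelled day 3 (0.338). Labelled day 7, Nfasc, the gene of an adhesion molecule, rose (2.31), as did Ust, the uronyl 2-sulfotransferase of chondroitin and dermatan sulfate (1.78). In astrocyte-like nuclei Ust fell on day 1 (0.459) and labelled day 3 (0.235), and Cd44, the hyaluronan receptor, rose in the libraries labelled day 3 (3.08, 1.45 to 7.31) and day 7 (2.67). Spock3, a testican proteoglycan, fell there in all 3 (0.513, 0.433 and 0.262). Ptn, a ligand of Ptprz1, fell on day 1 (0.617), and Tmem2, a surface protein linked to hyaluronan breakdown, fell labelled day 7 (0.278). In oligodendrocyte-like nuclei the testican gene Spock2 rose on day 1 (1.87) and labelled day 3 (1.93), Spock1 rose on day 1 (1.76), Nrp1 rose labelled day 3 (2.44) and Cntn1 fell on day 1 (0.624). Dsel, another such epimerase, fell in the libraries labelled day 3 (0.428) and day 7 (0.299), whereas Ust (2.04) and Adamts4 rose in the latter (1.90). In neuronal nuclei Tnxb, the gene of tenascin-X, rose on day 1 (2.74) and labelled day 7 (2.91), as did the lectican-cleaving protease Adamts15 (2.13 and 2.40). Adamts5, a protease of the same family, fell there on day 1 (0.475) and labelled day 3 (0.543), and the inhibitor Timp4 (0.547, 733 against 499 UMIs) and the hyaluronan synthase Has3 (0.461) fell labelled day 3, as did the inhibitor Timp1 labelled day 7 (0.456). Among the proteases and inhibitors in neuronal nuclei, 2 were higher and 1 lower of 11 on day 1, 2 and 2 of 12 labelled day 3, and 2 and 2 of 11 labelled day 7. Of all genes in these nuclei 7.42%, 5.43% and 7.43% passed. The other lists were not broken down for them here.

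The genes with the most similar pattern were sought by Pearson's r of log2 levels over 58 points, each a class in 1 library, among 10740 genes. The points share libraries and differ in depth, so r is a description. Vcan was most like Itga9 (0.70), an integrin subunit that binds tenascin-C, Tnr like Dmd (0.77), Ptprz1 like Gpld1 (0.79), Cspg4 like Arhgap31 (0.77), and Tnc like Ddhd1 (0.57). Bcan was most like Crot (0.76), Ncan like Ttyh1 (0.80), Hapln1 like Ncoa1 (0.75), Cspg5 like Gm3764 (0.78), and Acan like Fam222b (0.63). Between members the highest values were 0.63 for Vcan with Cspg5, 0.62 for Bcan with Ptprz1 and 0.59 for Acan with Tnr. Vcan and Ncan, both lecticans, had 0.05.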

How the data were processed

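Nuclei of 3 pooled forebrain hemispheres per group were profiled with the 10x Genomics 3′ v3.1 chemistry. The authors mapped the reads to GRCm38 with STAR 2.7.3a, counted exonic and intronic reads against GENCODE vM8 and deposited raw UMI counts for every barcode. No normalization had been applied to the deposited counts, and whether counting used the strand is not given in the sources used here, so genes that overlap others (Vcan, Ncan, Tnr, Tnc, Hapln1 and Cspg5) carry that uncertainty. Gene positions are those of GENCODE on GRCm38. Promoter windows come from RefSeq, where 9 of 10 members had an entry and Cspg5 had none.

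Nuclei were called in each library by a test against free RNA (barcodes of at most 1000 UMIs, 10000 Monte Carlo draws, false discovery rate under 0.001), which gave 7916 nuclei. Doublets were scored with Scrublet as in scanpy 1.11.5, and the top 0.8% per 1000 nuclei were removed, leaving 7772. Free RNA, estimated by the authors with another tool, was subtracted here only as an alternative. Libraries were normalized with sctransform 0.4.2, integrated with Seurat 5.3.0 in R 4.3.3 and clustered on 30 components at resolution 0.8. All members and the 80 genes of the pathway lists were left out of the 3000 variable genes, so that no class was defined by them. Clusters were named from marker lists where the leading class was ahead of the next. The Lhx6 interneuron-like class was not clustered again, since its clusters already separated.

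UMIs were summed by class and library and divided by the class total (Python 3.11.15, numpy 2.4.6, scipy 1.17.1). Levels carry exact Poisson and ratios exact conditional binomial 95% intervals. With 1 library per group no test between conditions was possible and no p-value is given. The rule for a call (ratio of at least 1.5, interval excluding 1, at least 20 UMIs) was run over all genes of the class to give the background. On counts simulated from the libraries, with 200 genes changed 3-fold, it called from 71.5% to 81.0% of them the right way in OPC-like nuclei and from 93.5% to 94.5% in neuronal nuclei, and from 1.16% to 3.70% of unchanged genes over the 4 classes. These counts were Poisson draws from the pooled profile of a class, without spread between nuclei or animals. The shares therefore cover counting error only and are no error rate of the rule in the data. Every member past the rule in a class was named. Pathway genes were named where they passed the rule with the largest ratios and no more than 50% of their UMIs in 1 nucleus. The members, lists and rules were chosen with earlier results of these data known. Alternatives changed the nucleus filter, doublet share, integration, resolution, free RNA, depth, scaling, UMI minimum and fold. The alternative that left out an oligodendrocyte-like cluster was added after the data were seen.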

Additional observations from a re-analysis of the deposited data

Results flagged for a closer look

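Several results stood out because a member moved in opposite directions in different classes of the same library. These differences between classes were not tested, since each class has 1 library per group.

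Bcan in the library labelled day 3 had a ratio to sham control of 0.576 in OPC-like and 0.131 in ependymal-like nuclei (21 against 2 UMIs), but 3.58 in oligodendrocyte-like nuclei (5 against 22 UMIs). Microglia-like nuclei of that library had 29.4 CPM of Bcan, oligodendrocyte-like nuclei 22.9 CPM, and free RNA would give about 12.6 CPM in the latter. Tnr in the library labelled day 7 stood at 2.83 in astrocyte-like, 2.95 in oligodendrocyte-like and 2.38 in ependymal-like nuclei, but at 0.188 in endothelial-like nuclei (19 against 3 UMIs). The endothelial-like value in sham, 123 CPM, was below the 200 CPM of microglia-like nuclei, and so were the sham values of astrocyte-like (198 CPM) and oligodendrocyte-like nuclei (102 CPM). In the library labelled day 3 Tnr was 1.61 in ependymal-like and 0.565 in Adarb2 interneuron-like nuclei.

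Ptprz1 differed between neuron classes. In the library labelled day 3 its ratio was 1.50 in Lhx6 interneuron-like nuclei, 0.643 in Adarb2 interneuron-like nuclei and 0.311 in endothelial-like nuclei. The Lhx6 interneuron-like levels in sham and labelled day 3 were both below those of microglia-like nuclei. In the library labelled day 7 the ratio of Ptprz1 was 2.51 in Lhx6 interneuron-like, 0.626 in striatal projection neuron-like and 0.170 in endothelial-like nuclei. The ependymal-like class held 17, 7, 20 and 7 nuclei and the endothelial-like class 40, 6, 74 and 21, so their ratios rest on few nuclei.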

How the results depend on the processing

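No paired analysis was possible because each group holds 1 library. Of 167 counts of members under the alternatives, 121 stayed within 1.5-fold of the value reported, and of 206 ratios past the rule 151 kept their call, 53 lost it and 2 changed direction. Cases with 0 UMIs left in sham control, for Tnc in OPC-like and Bcan in oligodendrocyte-like nuclei, gave no ratio and are not among these. Of 1016 ratios not past the rule, 22 passed under an alternative. The ratios that changed direction were Vcan in astrocyte-like nuclei on day 1 when thinned to 1000 UMIs (1.02) and Tnr in oligodendrocyte-like nuclei of the library labelled day 7 without the cluster led by Cnksr3 and Cldn14 (0.852). The number of members highest in OPC-like nuclei stayed within 1.5-fold of 6 under every alternative.

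Thinning to 1000 UMIs gave 0 calls in OPC-like nuclei in the libraries labelled days 3 and 7, 0 in astrocyte-like nuclei labelled day 3, 1 labelled day 7, 0 and 1 in oligodendrocyte-like nuclei labelled days 3 and 7, and 0 and 1 in neuronal nuclei on day 1 and labelled day 7. The 1 call in astrocyte-like nuclei labelled day 7 was Cspg5, whose reported ratio of 0.687 did not pass, and none of the 4 calls reported there was kept. In OPC-like nuclei on day 1 the count was still 1, but Cspg5 stood in place of Tnc. Merging the libraries without integration gave 1 and 0 in OPC-like nuclei labelled days 3 and 7, 1 in astrocyte-like nuclei on day 1, and 1 and 4 in oligodendrocyte-like nuclei on day 1 and labelled day 3. Leaving out the richest nucleus of each gene gave 0 and 2 in OPC-like nuclei on day 1 and labelled day 3, 0 in astrocyte-like nuclei labelled day 3, 1 and 2 in oligodendrocyte-like nuclei on day 1 and labelled day 3, and 0 in neuronal nuclei on day 1. A ratio of at least 2 left 2 and 0 in OPC-like nuclei labelled days 3 and 7, 1, 0 and 2 in astrocyte-like nuclei on day 1 and labelled days 3 and 7, and 1 in neuronal nuclei labelled day 7. A minimum of 50 UMIs left 0 in OPC-like nuclei on day 1, 0 in oligodendrocyte-like nuclei labelled day 3, and 0 and 1 in neuronal nuclei on day 1 and labelled day 7, whereas no minimum gave 2 in OPC-like nuclei labelled day 7 and 2 in oligodendrocyte-like nuclei labelled day 3. Removing a doublet share of double size gave 2 in OPC-like nuclei labelled day 3 and 1 in astrocyte-like nuclei labelled day 7, and resolution 1.6 gave 1 in the latter and 0 in neuronal nuclei on day 1. The mean of per-nucleus CPM gave 1 and 0 in OPC-like nuclei labelled days 3 and 7, and size factors gave 0 in the latter and 1 in astrocyte-like nuclei on day 1. Only nuclei of more than 2000 UMIs, or free RNA subtracted as 10% of UMIs, gave 2 in astrocyte-like nuclei labelled day 3, and the latter gave 0 in oligodendrocyte-like nuclei labelled day 3. Free RNA subtracted as the same number per nucleus gave 1 and 0 in oligodendrocyte-like nuclei on day 1 and labelled day 3, and leaving out the cluster led by Cnksr3 and Cldn14, an alternative chosen after seeing the data, gave 1 and 0 there. Apart from settings that themselves remove UMIs, nuclei or genes, the cause was not tested. The share over all genes was run for the reported setting only, so no count under an alternative, here or above, has its own background. Thinning or another minimum of UMIs can also change how many members could be compared.

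Vcan in neuronal nuclei labelled day 7 kept its call under all 10 alternatives that give another ratio (0.437 to 0.625), but at 0.604 did not reach a ratio of at least 2. Bcan in astrocyte-like nuclei on day 1 kept it under 9 of 10 of these (0.538 to 0.682). Cspg4 in OPC-like nuclei labelled day 3 kept it under 8 of 10 (0.450 to 0.771). Cspg5 there kept it under 5 of 10, and Tnc in astrocyte-like nuclei labelled day 7 under 4 of 10. The highest class of Cspg4 became OPC-like with more than 2000 UMIs, with merged libraries and after thinning, that of Tnc became astrocyte-like after thinning, and that of Hapln1 became astrocyte-like with the larger doublet share.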
